A study of Saccharomyces cerevisiae with 18 samples.

Results

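The 8 genes described here encode the HMG-box proteins of budding yeast (Saccharomyces cerevisiae) named Hmo1, Nhp6a, Nhp6b, Nhp10, Abf2, Ixr1 and Rox1, together with the linker histone Hho1. They were taken as a family by systematic identifier, at a time when earlier results of these data were known. They make up 8 of the 7126 features in the RNA tables. All 8 were present and passed the filter on low counts. The question put to the data was whether any of the other 7 genes was higher when Hmo1 was lost.

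An HMG box is a small DNA-binding fold that sits in the minor groove and bends the helix, in most of these proteins with little preference for sequence. Hmo1 binds ribosomal protein promoters and actively transcribed ribosomal DNA, and has been likened to a linker histone, while Hho1 carries the winged-helix domains of a true one. Nhp6a and Nhp6b are near-identical and largely redundant, and they assist the histone chaperone FACT (Spt16 and Pob3) at nucleosomes.

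RNA was sequenced from 5 cultures, with 1 library each. Wild type, hmo1Δ, top2-1 and hmo1Δ;top2-1 log-phase cells were moved from 28 °C to 37 °C for 60 min, a temperature at which the top2-1 product loses activity. The fifth library came from wild-type cells labelled as held in G1 and then let into S phase for 15 min at 28 °C. Chromatin data covered Flag-tagged Hmo1 (2 libraries), histone H3 (4 libraries) and a Top2 ChIA-PET library, which records pairs of DNA segments joined while bound by Top2. The chromatin immunoprecipitation (ChIP) cells spent 2 h and 15 min at 37 °C. Hmo1 was mapped in Hmo1tag cells with a control plasmid, and in Hmo1tag;top2-1;top1Δ cells expressing Escherichia coli TopA, a type I topoisomerase, from a plasmid. H3 was mapped in wild type and in top2-1;top1Δ, each with the control plasmid or the TopA plasmid. The ChIA-PET cells were wild type at 28 °C.

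With 1 library in every group there is no replicate error and no p-value. Intervals are exact 95% binomial intervals of the counts, and they cover counting error only, not differences between cultures. They may be too narrow even for counting error, because PCR can copy a molecule into many reads. The RNA libraries held from 4752471 (wild type, 37 °C) to 14770300 (wild type, 28 °C) estimated counts, and 6085 genes whose mean reached 20 counts were kept. Genes at or beyond 1 or -1 on the log2 scale are called 2-fold higher or lower, and a gene is said to lie above or below the median of all genes when its whole interval does. In a bulk culture, a shift in the mix of cell-cycle stages and a change within each cell cannot be told apart.

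HMO1 itself checks the labels. HMO1 (YDR174W, chromosome IV, R64 build, 812110 to 812850, plus strand) encodes a protein of 246 residues. Its estimated count was 1386 in wild type at 28 °C, 1152 in wild type at 37 °C and 1327 in top2-1, and it was 0 in hmo1Δ and in hmo1Δ;top2-1. The strains labelled as deleted had no HMO1 read, and every other library had many. Taken against a floor of 3 counts in the deleted library, HMO1 was at least 481-fold lower in hmo1Δ than in wild type and at least 685-fold lower in hmo1Δ;top2-1 than in top2-1. Between top2-1 and wild type its log2 ratio was -0.06 (-0.18 to 0.05).

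Levels per length, in TPM (RSEM's length-corrected share of a library), spread the 8 genes over more than an order of magnitude at 37 °C. In wild type the order was NHP6A at 819 TPM, NHP6B at 427, HMO1 at 304, ABF2 at 200, ROX1 at 163, HHO1 at 101, NHP10 at 70.8 and IXR1 at 58.2. NHP6A ranked 211 and NHP6B 362 among 5988 coding genes, whereas IXR1 ranked 2631. In hmo1Δ the first places were exchanged, with NHP6B at 875 TPM (rank 190) above NHP6A at 421 TPM (rank 382). ROX1 at 144 TPM, ABF2 at 139 and HHO1 at 131 then lay close together, before NHP10 at 71.5 and IXR1 at 61.0. The top2-1 order was that of wild type, with HHO1 at 67.1 TPM hardly above NHP10 at 66.5. In hmo1Δ;top2-1, NHP6B at 687 TPM again stood above NHP6A at 480. Without replicates, neighbours in these orders cannot be separated beyond a spread.

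**Figure D1:**
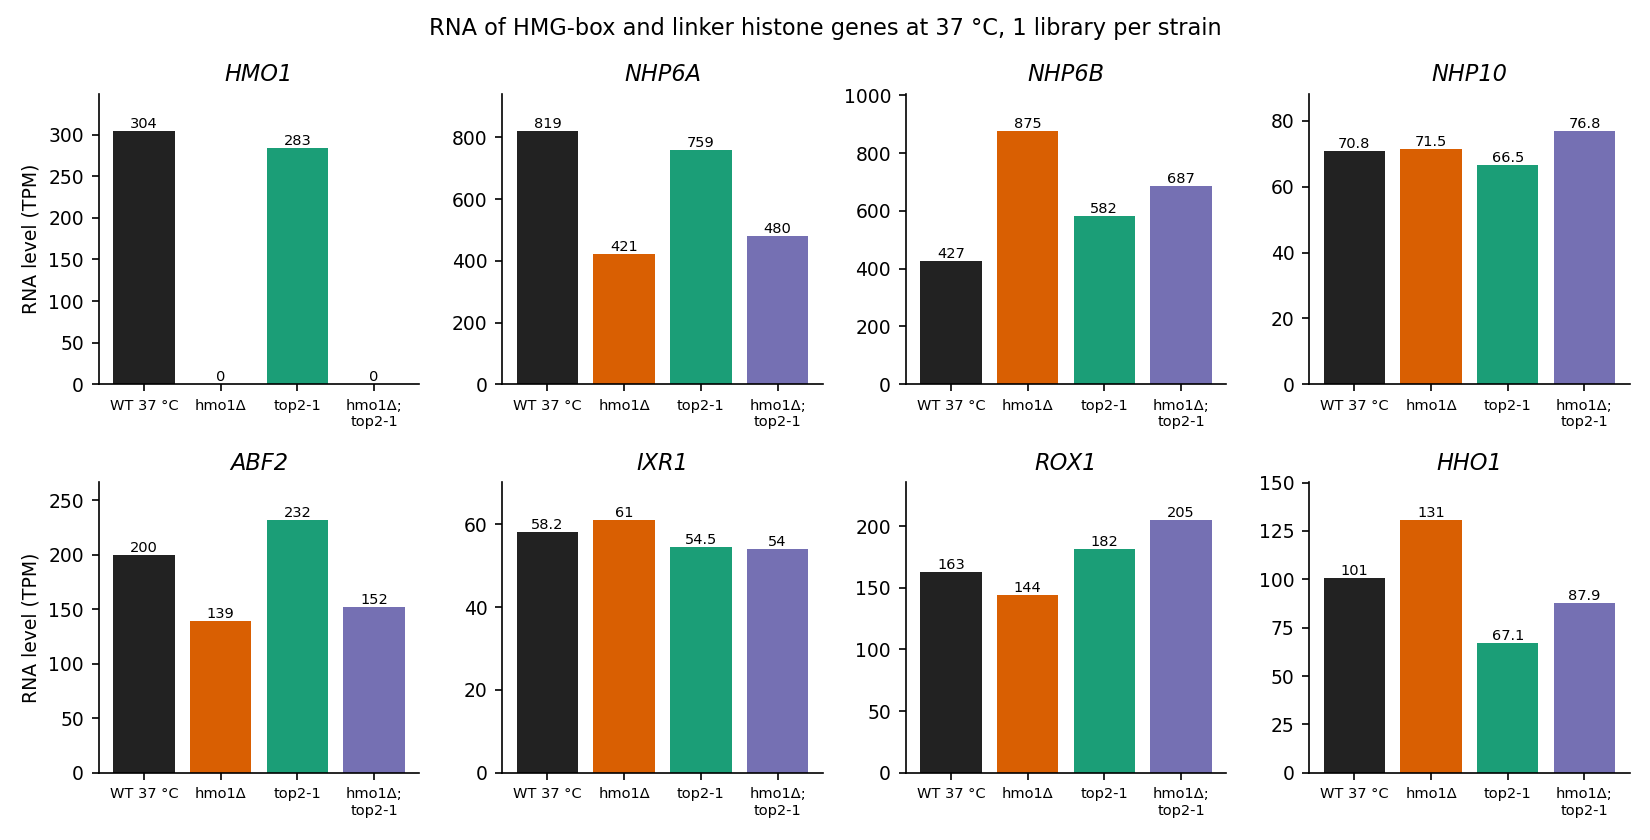
RNA level in TPM (y axis, starting at 0) of each of the 8 genes in the 4 strains at 37 °C (x axis), 1 library per bar with the value printed above it. HMO1 is at 0 in both deleted strains, NHP6A is lower and NHP6B higher there, and each panel has its own scale.

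HMO1 made up 16.5% of the summed TPM of the 6 nuclear HMG-box genes in wild type and 14.7% in top2-1. That sum was 1842 TPM in wild type and 1572 in hmo1Δ, and 1927 TPM in top2-1 and 1503 in hmo1Δ;top2-1. With HMO1 left out, the wild-type sum was 1538 TPM and the top2-1 sum 1643 TPM. The 5 genes that remained thus summed to a little more in hmo1Δ than in wild type, and to less in hmo1Δ;top2-1 than in top2-1. TPM are shares of a library, and on that scale the median of all genes moved by -0.31 (log2) between wild type and hmo1Δ and by -0.12 between top2-1 and hmo1Δ;top2-1. The ratios below use counts scaled by TMM, which puts the all-gene median at 0.00 in each of these comparisons.

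Loss of Hmo1 was measured by hmo1Δ over wild type and again by hmo1Δ;top2-1 over top2-1, comparisons that share no library. Among the other 7 genes, NHP6B alone was 2-fold higher in hmo1Δ than in wild type, against 7.13% of all genes kept. No member was 2-fold lower, against 5.19%. In the top2-1 background no member was 2-fold higher or lower, against 3.76% and 3.75% of all genes. By their counting intervals, NHP6B, NHP10, ROX1 and HHO1 lay above the all-gene median in both comparisons, 4 of 7 where 21.4% of all genes did so. NHP6A and ABF2 lay below it in both, 2 of 7 against 20.7%. None of the 7 was 2-fold higher in both, against 2.1%, or 2-fold lower in both, against 2.2%. Taken one comparison at a time, 5 of 7 lay above it in hmo1Δ over wild type, IXR1 included, against 32.8% of all genes, and 4 of 7 in the top2-1 background, against 32.5%. Those below it were the same 2 each time, against 32.6% and 31.6%. The median log2 ratio of the 7 genes was 0.34 in hmo1Δ over wild type and 0.30 in hmo1Δ;top2-1 over top2-1, beside 0.00 over all genes in each.

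**Figure D2:**
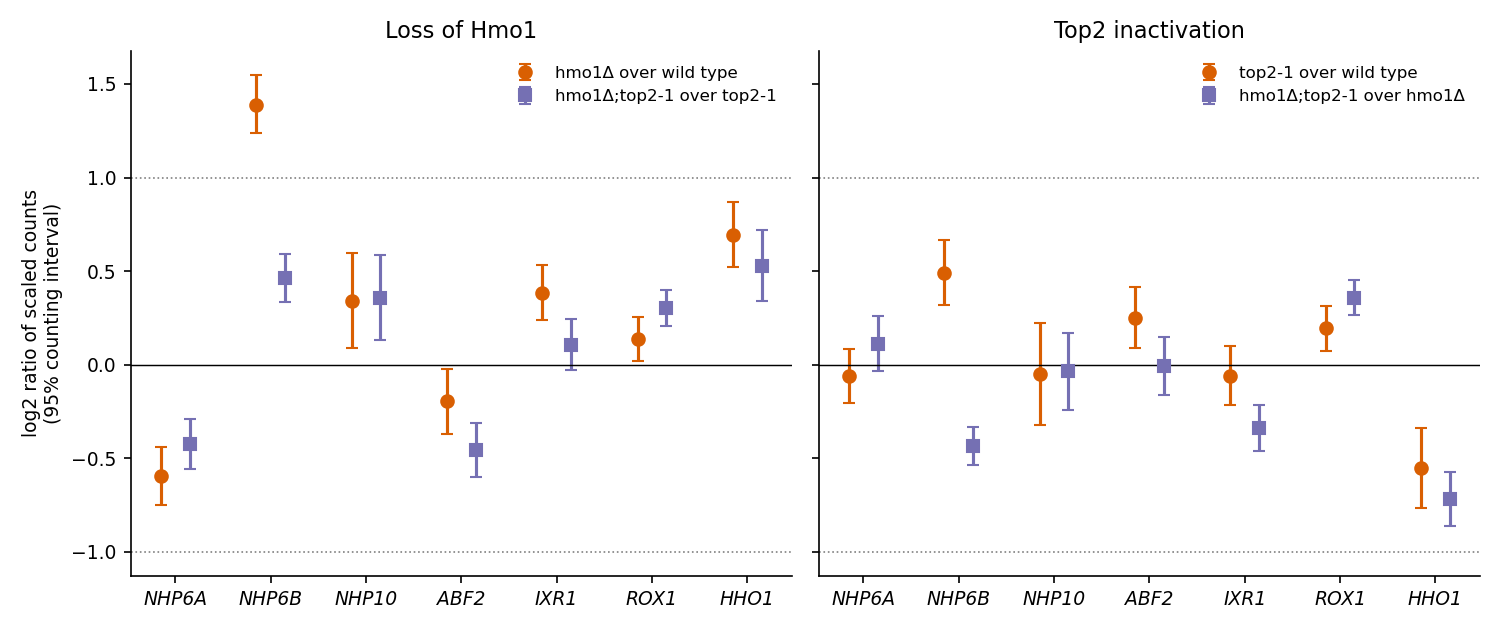
Log2 ratio of scaled counts (y axis) for the 7 genes other than HMO1 (x axis), with loss of Hmo1 on the left and loss of Top2 activity on the right; points are ratios of 1 library to 1 library, bars are 95% counting intervals, and dotted lines mark 2-fold. Only NHP6B in hmo1Δ over wild type, at 1.39, is past a dotted line.

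NHP6B (YBR089C-A, chromosome II, 426190 to 426489, minus strand) encodes a protein of 99 residues. Its estimated count was 693 in wild type at 28 °C, 438 in wild type at 37 °C, 1440 in hmo1Δ, 742 in top2-1 and 1585 in hmo1Δ;top2-1. Raw counts also follow library size, and the wild-type library at 37 °C was the smallest. Scaled by TMM to CPM, counts at a common library size, the levels at 37 °C were 78.1 in wild type, 205 in hmo1Δ, 110 in top2-1 and 152 in hmo1Δ;top2-1. Wild type at 28 °C was at 74.5 CPM. Among the 37 °C cultures both deleted strains were higher than both strains with HMO1. The log2 ratio of hmo1Δ over wild type was 1.39 (1.24 to 1.55), or 2.62-fold, and 219 of the genes kept had a larger one. In the top2-1 background it was 0.46 (0.34 to 0.59), or 1.38-fold, with 970 genes above it. NHP6B was thus higher without Hmo1 in both backgrounds, by less where Top2 was inactive. The difference of the log2 ratios, top2-1 background minus wild-type background, was -0.93 (-1.13 to -0.73) by the counts alone. Over all genes that difference was lower than here in 4.98%.

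NHP6A (YPR052C, chromosome XVI, 665693 to 665974, minus strand), the partner gene, encodes 93 residues. Its count was 1110 in wild type at 28 °C, 747 in wild type at 37 °C, 619 in hmo1Δ, 862 in top2-1 and 996 in hmo1Δ;top2-1. In CPM the levels at 37 °C were 133 in wild type, 88.1 in hmo1Δ, 128 in top2-1 and 95.3 in hmo1Δ;top2-1, so both deleted strains were low and both strains with HMO1 were high. Its log2 ratio was -0.59 (-0.75 to -0.44) in hmo1Δ over wild type and -0.42 (-0.56 to -0.29) in hmo1Δ;top2-1 over top2-1. Among all genes, 870 had a lower ratio in the first comparison and 1034 in the second.

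The members of this paralog pair lay on opposite sides of the all-gene median in both comparisons, and the balance between them can be read within each library without any scaling. NHP6B gave 38.4% (36.2 to 40.7) of the pair's counts in wild type at 28 °C and 37.0% (34.2 to 39.8) in wild type at 37 °C. Its share was 69.9% (67.9 to 71.9) in hmo1Δ, 46.3% (43.8 to 48.7) in top2-1 and 61.4% (59.5 to 63.3) in hmo1Δ;top2-1. The strains with HMO1 were all below an even share and the strains without it were above. Per length, as a share of the pair's TPM at 37 °C, NHP6B stood at 34.3% in wild type, 67.5% in hmo1Δ, 43.4% in top2-1 and 58.9% in hmo1Δ;top2-1, the same order. The NHP6B to NHP6A ratio was 3.97-fold higher in hmo1Δ than in wild type, a log2 change of 1.99 (1.77 to 2.21). It was 1.85-fold higher in hmo1Δ;top2-1 than in top2-1, a log2 change of 0.89 (0.70 to 1.07). Loss of Top2 activity changed the same ratio by 0.55 (0.33 to 0.78) on the log2 scale in cells with Hmo1 and by -0.55 (-0.73 to -0.37) in cells without it.

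**Figure D3:**
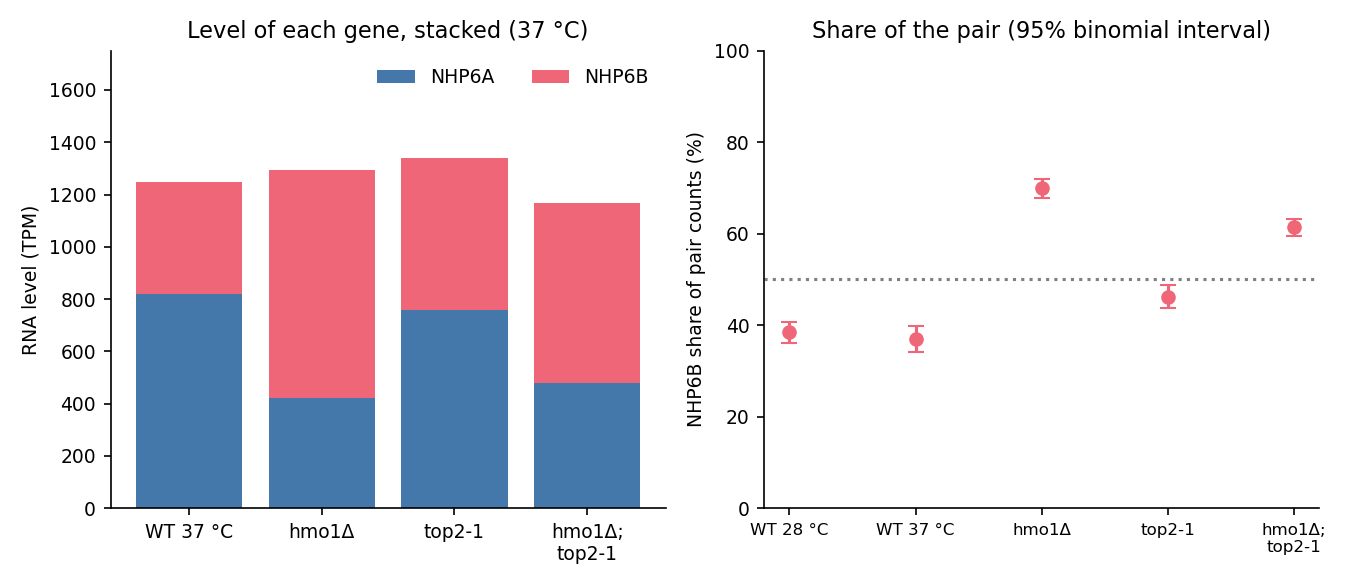
Left, TPM of NHP6A and NHP6B stacked (y axis, from 0) in the 4 strains at 37 °C; right, percent of the pair's estimated counts that belong to NHP6B in all 5 RNA libraries, with 95% binomial intervals and a dotted line at an even share. NHP6B is the minority in the 3 libraries with HMO1 and the majority in hmo1Δ (69.9%) and hmo1Δ;top2-1 (61.4%).

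In the loss-of-Hmo1 comparisons the summed pair had a smaller log2 ratio in size than either gene. In TPM the sum was 1247 in wild type, 1295 in hmo1Δ, 1341 in top2-1 and 1168 in hmo1Δ;top2-1. The log2 ratio of the summed counts, scaled by TMM, was 0.47 (0.37 to 0.58) in hmo1Δ over wild type, and on the TPM scale, whose all-gene median was -0.31, it was 0.06. In hmo1Δ;top2-1 over top2-1 the summed counts gave 0.05 (-0.04 to 0.15) and the TPM gave -0.20 beside an all-gene median of -0.12.

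Reads of these short genes may be assigned unevenly, because they are paralogs and because each overlaps another reading frame. YPR053C shares 187 bp with NHP6A and YBR090C shares 157 bp with NHP6B, in both cases on the same strand by its systematic name. With the counts of YPR053C added, NHP6A lay at -0.59 (-0.73 to -0.45) in hmo1Δ over wild type. With those of YBR090C and the frame numbered beside it, YBR089W, NHP6B lay at 1.13 (0.99 to 1.27) in the same comparison and at 0.43 (0.31 to 0.54) in the top2-1 background. YBR089W has no position in the reference used here, so whether it overlaps NHP6B was not checked. The other frames gave 25.0% of that summed count in wild type and 9.83% in hmo1Δ. As a guide to length, 170 other coding genes of 250 to 350 bp had a median log2 ratio of 0.10 in hmo1Δ over wild type and 0.12 in hmo1Δ;top2-1 over top2-1. Their 5th to 95th percentiles in the first comparison ran from -0.97 to 1.64, a range that holds NHP6B.

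HHO1 (YPL127C, chromosome XVI, 308828 to 309604, minus strand) encodes the linker histone, of 258 residues. Its count was 3020 in wild type at 28 °C, 406 in wild type at 37 °C, 823 in hmo1Δ, 333 in top2-1 and 744 in hmo1Δ;top2-1. In CPM it stood at 325 in the 28 °C library and, at 37 °C, at 72.4 in wild type, 117 in hmo1Δ, 49.4 in top2-1 and 71.2 in hmo1Δ;top2-1. Among the 37 °C cultures hmo1Δ was highest and top2-1 lowest, while hmo1Δ;top2-1 lay near wild type. The log2 ratio was 0.69 (0.52 to 0.87), or 1.62-fold, in hmo1Δ over wild type, and 0.53 (0.34 to 0.72), or 1.44-fold, in hmo1Δ;top2-1 over top2-1. Among all genes, 791 had a higher ratio in the first comparison and 806 in the second. The linker histone RNA was higher without Hmo1 in both backgrounds, by less than 2-fold.

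Core histones were read beside HHO1, as a list chosen, like the other gene lists below, with earlier results of these data known. Of 10 core histone and variant genes, 4 were 2-fold higher in hmo1Δ than in wild type, against 7.13% of all genes. In hmo1Δ;top2-1 over top2-1, 5 were 2-fold higher, against 3.76%. None was 2-fold lower in either, against 5.19% and 3.75%. The list's median log2 ratio was 0.70 and 1.01. HHF1, an H4 gene, was at 2.13 (1.96 to 2.32) in hmo1Δ and 1.49 (1.35 to 1.64) in the top2-1 background, and HTA1, an H2A gene, at 1.87 and 1.15. HTA2, also H2A, was at 1.25 in hmo1Δ, and HTB2, an H2B gene, at 1.49 in the top2-1 background. Reads of near-identical histone copies may be split unevenly. Of 7 regulators of histone genes, 1 was 2-fold lower in hmo1Δ, against 5.19% of all genes, and none in the top2-1 background, against 3.75%. HIR1, a subunit of the HIR repressor of histone genes, was at -1.04 (-1.26 to -0.84) and -0.73 (-0.91 to -0.55). HIR3 of the same complex was at -0.63 and -0.58, and the histone chaperone gene ASF1 at -0.51 and 0.36. The rest of the HIR complex did not follow, HPC2 being at 0.25 (0.02 to 0.50) and HIR2 at -0.21 (-0.47 to 0.04) in hmo1Δ. Both were at -0.13 in the top2-1 background, and both were named after their values were seen. Not every gene of the histone list went the way of HHO1. HHF2, the other H4 gene, was at -0.14 (-0.24 to -0.05) in hmo1Δ, and HTZ1, the H2A.Z variant gene, at -0.18 (-0.51 to 0.15) in hmo1Δ and -0.81 (-1.14 to -0.51) in the top2-1 background, both named after their values were seen. Core histone RNAs are made in S phase, and the part of cell-cycle stage in these values was not tested.

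ROX1 (YPR065W, chromosome XVI, 679693 to 680799, plus strand) encodes the heme-dependent repressor of hypoxic genes. Its count was 1229 in wild type at 28 °C, 992 in wild type at 37 °C, 1367 in hmo1Δ, 1365 in top2-1 and 2607 in hmo1Δ;top2-1. Scaled levels at 37 °C were 177 CPM in wild type, 195 in hmo1Δ, 202 in top2-1 and 249 in hmo1Δ;top2-1, with the strain lacking both activities highest. The log2 ratio for loss of Hmo1 was 0.14 (0.02 to 0.26) with active Top2, where the TPM value was lower in hmo1Δ (144 against 163) although still above the all-gene median. With Top2 inactive it was 0.30 (0.21 to 0.40).

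Hypoxic genes known as targets of Rox1 were read beside it, again as a list chosen with earlier results known. Of 10 such genes, 5 were 2-fold higher in hmo1Δ than in wild type, against 7.13% of all genes. In hmo1Δ;top2-1 over top2-1, 2 were 2-fold higher, against 3.76%. None was 2-fold lower in either, against 5.19% and 3.75%. The medians were 0.94 and 0.45. CYC7, the hypoxic cytochrome c isoform, had 205 counts in wild type and 1166 in hmo1Δ, a log2 ratio of 2.18 (1.97 to 2.40). In the top2-1 background it had 399 counts in top2-1 and 679 in hmo1Δ;top2-1, a ratio of 0.14 (-0.04 to 0.32). COX5B, the hypoxic isoform of a cytochrome c oxidase subunit, was at 1.67 (1.54 to 1.81) and 0.61 (0.50 to 0.72). ANB1, the hypoxic translation factor eIF5A, was at 1.05 and 1.55 (1.32 to 1.81). DAN1, a cell wall mannoprotein of anaerobic growth, was at 1.30 on 55 and 17 counts, a wide interval of 0.56 to 2.25. SUT1, a regulator of sterol uptake, was at 0.81 and 1.13, and AAC3, a mitochondrial ADP/ATP carrier, at -0.54 and 0.89.

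IXR1 (YKL032C, chromosome XI, 380065 to 381858, minus strand) encodes an HMG-box regulator that acts on hypoxic genes, COX5B and ROX1 among them. Its count was 1936 in wild type at 28 °C, 605 in wild type at 37 °C, 989 in hmo1Δ, 699 in top2-1 and 1165 in hmo1Δ;top2-1. In CPM the levels at 37 °C were 108 in wild type, 141 in hmo1Δ, 104 in top2-1 and 111 in hmo1Δ;top2-1, so hmo1Δ stood above 3 similar cultures. The log2 ratio was 0.38 (0.24 to 0.53) in hmo1Δ over wild type and 0.11 (-0.03 to 0.24) in hmo1Δ;top2-1 over top2-1. On the TPM scale the values were nearly level in both comparisons (58.2 and 61.0, then 54.5 and 54.0).

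NHP10 (YDL002C, chromosome IV, 446967 to 447578, minus strand) encodes the HMG-box subunit of the INO80 chromatin remodeler. Its count was 286 in wild type at 28 °C, 211 in wild type at 37 °C, 335 in hmo1Δ, 245 in top2-1 and 486 in hmo1Δ;top2-1. CPM levels at 37 °C were 37.6 in wild type, 47.7 in hmo1Δ, 36.3 in top2-1 and 46.5 in hmo1Δ;top2-1. Both strains without HMO1 were higher, with ratios of 0.34 (0.09 to 0.60) and 0.35 (0.13 to 0.58), although the TPM values of wild type and hmo1Δ were 70.8 and 71.5. Of 14 other INO80 genes none was 2-fold higher or lower in either comparison. Over all genes, 7.13% were higher and 5.19% lower in the first, and 3.76% and 3.75% in the second. The medians of the 14 genes were -0.13 and -0.11. The gene of the ATPase, INO80, was at -0.41 (-0.53 to -0.29) and -0.34 (-0.45 to -0.24), below the all-gene median in both, while the actin gene ACT1 was at 0.56 and ARP4 at -0.55 in hmo1Δ, and IES2 at 0.72 and IES3 at 0.28 in the top2-1 background.

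ABF2 (YMR072W, chromosome XIII, 411569 to 412120, plus strand) encodes the protein that packages mitochondrial DNA and is the only one of the 8 known to act mainly outside the nucleus. Its count was 527 in wild type at 28 °C, 522 in wild type at 37 °C, 571 in hmo1Δ, 748 in top2-1 and 844 in hmo1Δ;top2-1. Scaled, the levels at 37 °C were 93.1 CPM in wild type, 81.3 in hmo1Δ, 111 in top2-1 and 80.8 in hmo1Δ;top2-1. Both strains without HMO1 were low and level with each other. The log2 ratio was -0.19 (-0.37 to -0.02) with active Top2 and -0.46 (-0.60 to -0.31) with inactive Top2. Among 10 genes of mitochondrial DNA maintenance, 1 was 2-fold higher in both comparisons, as 2.1% of all genes were. This was ILV5, an amino acid synthesis enzyme that also stabilises mitochondrial DNA, at 1.20 (1.14 to 1.26) and 1.04 (0.98 to 1.11). None was 2-fold lower, against 5.19% and 3.75% of all genes, and the medians were -0.35 and -0.22. RIM1, the mitochondrial single-strand DNA-binding protein, was at -0.97 (-1.15 to -0.79) and -0.67 (-0.81 to -0.53), PIF1, a helicase, at -0.70 in hmo1Δ, and MHR1, a recombination factor, at -0.46 in the top2-1 background.

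**Figure D4:**
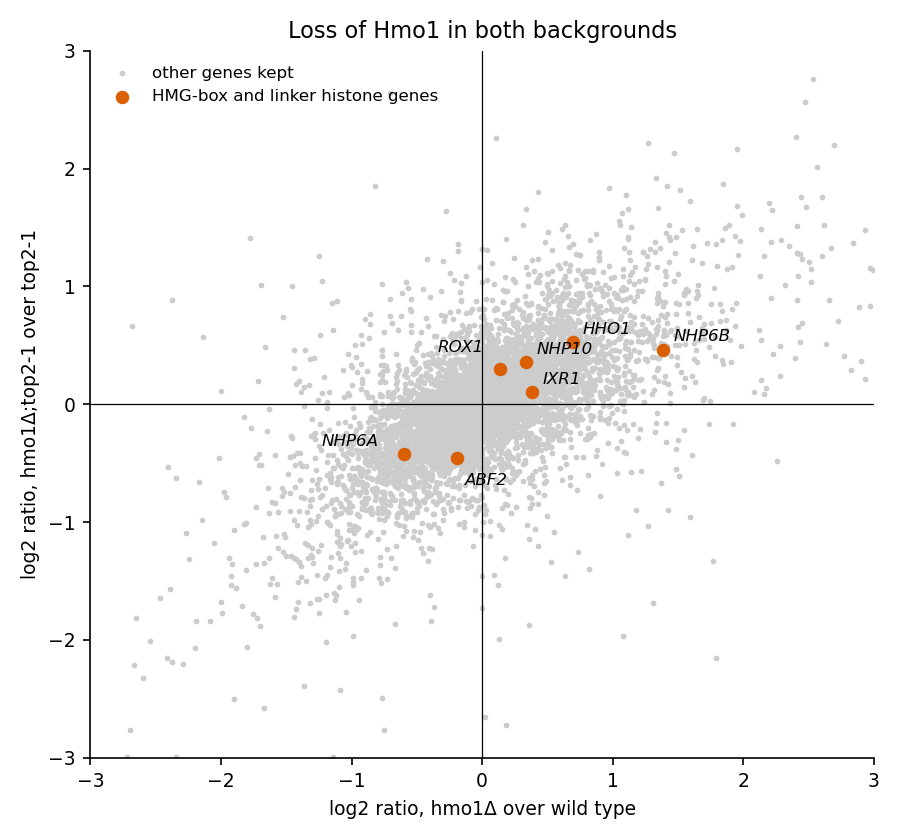
Log2 ratio of scaled counts in hmo1Δ over wild type (x axis) against hmo1Δ;top2-1 over top2-1 (y axis) for the genes kept, in grey, with the 7 members besides HMO1 in orange; 65 genes lie outside the axis limit of 3. NHP6B and HHO1 lie toward the upper right, NHP6A and ABF2 at the lower left, and all 7 within the spread of the other genes.

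Genes known to work with these proteins were read as lists. The FACT subunit genes, whose products act with Nhp6, were at -0.28 (-0.41 to -0.15) for SPT16 and -0.25 (-0.38 to -0.13) for POB3 in hmo1Δ over wild type, and at 0.17 and -0.10 in the top2-1 background. Of 6 regulators of ribosomal protein genes, the promoters Hmo1 binds, none was 2-fold changed in either comparison, and the medians were 0.07 and -0.17. IFH1, the coactivator at those promoters, was at -0.73 (-0.86 to -0.60) and -0.26 (-0.36 to -0.17). RAP1 was at 0.55 and FHL1 at -0.31 in hmo1Δ, and SFP1 at -0.42 and SCH9 at 0.34 in the top2-1 background. None of 8 RNA polymerase I initiation factor genes was 2-fold changed, with medians of -0.17 and -0.14. For both lists the shares over all genes were 7.13% higher and 5.19% lower in hmo1Δ, and 3.76% and 3.75% in the top2-1 background. RRN11 and RRN6, both of the core factor, were at -0.87 and -0.52 in hmo1Δ and at -0.79 and -0.51 in the top2-1 background. UAF30, of the upstream activating factor, was at -0.44 in hmo1Δ, and RRN5 of the same factor at -0.26 in the top2-1 background.

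Loss of Top2 activity was measured by top2-1 over wild type and by hmo1Δ;top2-1 over hmo1Δ. Each shares libraries with the comparisons above, so values are given side by side. No member was 2-fold higher in the first, against 1.53% of all genes, or 2-fold lower, against 0.855%. None was in the second either, against 1.73% and 2.48%. HHO1 lay below the all-gene median in both comparisons, as 9.99% of all genes did, at -0.55 (-0.77 to -0.34) and -0.72 (-0.86 to -0.57). Only 252 genes of the first comparison and 314 of the second had lower values. The core histone list had medians of 0.08 and 0.19 in these comparisons, with no gene 2-fold higher or lower. ROX1 lay above the median in both, as 8.4% of all genes did, at 0.19 (0.07 to 0.31) and 0.36 (0.26 to 0.45). NHP6B had opposite signs, 0.49 (0.32 to 0.67) with Hmo1 present and -0.43 (-0.54 to -0.33) without it. ABF2 was at 0.25 (0.09 to 0.42) and -0.01 (-0.16 to 0.15), and IXR1 at -0.06 (-0.22 to 0.10) and -0.34 (-0.46 to -0.21). Taken one at a time, 3 of 7 lay above the median in the first comparison (21.9% of all genes) and 1 below (22.5%), and in the second 1 lay above (28.1%) and 3 below (29.7%). NHP6A, at -0.06 and 0.11, and NHP10, at -0.05 and -0.04, had intervals that held the all-gene median in both.

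The wild-type libraries at 37 °C and 28 °C differ in temperature, in the labelled cell-cycle stage and in RNA makeup, which cannot be told apart. On the TMM scale HHO1 was the only member 2-fold lower at 37 °C, at -2.16 (-2.32 to -2.02), against 17.8% of all genes, and none was 2-fold higher, against 14.5%. By their intervals 4 of 7 lay above the all-gene median, against 40.2%, and 2 below, against 41.6%. IXR1 was at -0.95 (-1.08 to -0.82), and ABF2 at 0.71 (0.54 to 0.89). HMO1 was at 0.46 (0.35 to 0.58), ROX1 at 0.42, NHP10 at 0.29, NHP6A at 0.16 and NHP6B at 0.07. These directions depend on the scale, since on TPM the median of all genes was itself 1.90 and HHO1 was at 110 and 101 TPM. By rank among coding genes HHO1 stood at 444 in the 28 °C library and 1643 in wild type at 37 °C, and NHP6A at 343 and 211.

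For each member the gene of most similar course over the 4 libraries at 37 °C was found by Euclidean distance of centred log2 CPM. It has the smallest of 6084 distances over 4 values, so a distance far below the median and a like order follow from the choice. For NHP6B this was YPR078C, at a distance of 0.07 where the median gene lay 1.10 away, with 23.4 TPM in wild type, 47.9 in hmo1Δ, 31.3 in top2-1 and 37.7 in hmo1Δ;top2-1. NHP6A was closest to PEX6, at 0.04 against 0.66, and HHO1 to PYC2, at 0.08 against 0.97. PYC2 had 88.1 TPM in wild type, 116 in hmo1Δ, 62.0 in top2-1 and 83.3 in hmo1Δ;top2-1, the order seen for HHO1. ABF2 was closest to CCL1, ROX1 to GEP7, NHP10 to ART5 and IXR1 to TPP1, at distances of 0.01 to 0.03.

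Flanking genes show whether a member moved with its surroundings. Beside NHP6B, POL30, the replication clamp PCNA, was at -0.47 in hmo1Δ over wild type and 0.20 in hmo1Δ;top2-1 over top2-1, and the overlapping YBR090C at 0.30 and 0.58. Both genes beside NHP6A were lower with it, MAK3 at -0.77 and -0.81 and the overlapping YPR053C at -0.55 and -0.50. The neighbours of HHO1 did not match it, TBF1 being at -0.08 and 0.29 and NAN1 at -0.85 and -0.62. MCD1, the cohesin subunit beside NHP10, was at -1.58 and -0.43, and RMD1 on the other side at 0.36 and -0.01. The genes flanking HMO1, ARG82 and RSM24, were at -0.12 and -0.53 in hmo1Δ and both at -0.26 in the top2-1 background. Beside ROX1, YPR064W rested on 7 and 36 counts, a ratio of 1.84, and UBA3 was at 0.25. MAE1, next to IXR1, was at 0.58 and 0.89, and TVP18 and IRC21, next to ABF2, were at 0.06 and 0.19 in hmo1Δ.

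Peaks of Hmo1 were then placed at the 8 loci. The library with the control plasmid is titled as top2-1 and top1 mutant but its genotype field gives Hmo1tag alone, and the genotype was followed. A peak met the coding region or the 500 bp before it at 7 of 8 genes in the control list, where 55.4% of 6002 coding genes had one. In the TopA list it was also 7 of 8, against 62.2%. ABF2 was the gene without, its nearest peaks lying 1149 and 208 bp from that window. The 500 bp upstream alone held a peak at 7 of 8 genes in the control list, against 45.2%, and at 5 of 8 in the TopA list, against 41.4%, NHP10 and HHO1 having none there. The lists are of different length and the scale of their score is not given, so no change is read from them.

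HMO1 itself lay under a peak of 1535 bp, from -708 to 826 bp about its start codon, whose score of 2.06 ranked 71 of 1511 in the control list. Its TopA peak, with a score of 1.38, ranked 72 of 1933. NHP6B had a peak wholly upstream, at -942 to -202 bp from the start codon, ranked 368, and a TopA peak at -499 to -288 bp, ranked 619. The NHP6A peak spanned -273 to 646 bp from the start codon, past the end of the gene, ranked 784, and its TopA peak ranked 453. ROX1 and IXR1 lay inside wide domains, of 5253 and 5366 bp in the control list and of 6637 and 4153 bp in the TopA list. Their control peaks ranked 119 and 242. Peaks at NHP10 and HHO1 ranked 912 and 993 in the control list, and 1884 and 1879 in the TopA list, where they lay within or beyond the coding region. Each member above the all-gene median in hmo1Δ over wild type (NHP6B, NHP10, IXR1, ROX1, HHO1) had a control peak in its upstream 500 bp. Over all coding genes 45.2% had one. At NHP10, IXR1 and ROX1 it was a domain of 3666, 5366 and 5253 bp that ran past both ends of the gene. In the TopA list NHP10 and HHO1 had no upstream peak. Of the members below the all-gene median, NHP6A had an upstream control peak and ABF2 had no peak in its window in either list. A link between peaks and RNA ratios was not tested.

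Nucleosome calls from H3 over the members differed between the lists. In wild type with the control plasmid, 5 of 8 coding regions (HMO1, NHP6A, NHP6B, NHP10 and ABF2) held no summit, where 22.1% of all coding genes held none. Size matters here, and among coding genes of 282 to 777 bp the share was 53.1%, beside 5 of the 6 members of that size. In top2-1;top1Δ with the control plasmid all 8 held a summit, 18.5% of all genes and 36.5% of the short ones having none. With TopA in wild type, 3 of 8 lacked one (NHP6A, NHP6B and NHP10), against 16.3% of all genes and 40.1% of the short ones. With TopA in top2-1;top1Δ, 6 of 8 lacked one, against 55% of all genes and 69.4% of the short ones, in a list of 10841 nucleosomes where the others held 21862 to 25035. HMO1 held 0 summits in wild type and 4 in top2-1;top1Δ with the control plasmid, then 1 and 0 with TopA. HHO1 held 2, 4, 2 and 2 in the same order, and IXR1 8, 8, 6 and 0. The lowest signal listed was 1.4 in the mutant lists and 1 in the wild-type lists, there at 1 nucleosome in each. Summits listed near the members were at 1.40 or above in the wild-type lists too. The lists thus have a floor, so a missing call is not a measured absence of a nucleosome.

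Upstream of the start codon, where yeast promoters are commonly depleted of nucleosomes, most members had no summit within 500 bp. The number without was 7 of 8 in wild type with the control plasmid (83.5% of all genes), 6 in top2-1;top1Δ with the control plasmid (75%), and 8 in each TopA library (78.3% in wild type and 85.8% in the mutant). These counts stand near the background. NHP6A had a summit 473 bp before its start codon in the wild-type control list, and NHP6A and HHO1 had 2 each within the window in the mutant control list.

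Top2 ChIA-PET anchors lay within 500 bp of the coding region at 5 of 8 genes, NHP6A, NHP6B, NHP10, ABF2 and IXR1, where 48.8% of coding genes had one. The file lists 1887 pairs with 2 to 25 tags, 1498 of them at 2, so most pairs are thinly supported. The NHP6B anchor covered the start codon, from -259 to 95 bp, and its partner lay on chromosome XVI near LTP1 and TKL1, with 2 tags. The NHP6A anchor lay at -556 to -162 bp and was joined by 3 tags to a segment near SMK1 and SEC8, 1602 bp away. NHP10 had an anchor over the first part of its coding region, paired over 1148 bp toward MCD1 with 2 tags, and another past its end, paired over 2712 bp toward RMD1 with 3 tags. No anchor was near HMO1, the nearest being 17306 bp away, nor near HHO1 (2987 bp) or ROX1 (1969 bp).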

How the data were processed

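The members and gene lists were chosen with earlier results of these data known. The authors deposited RSEM expected counts, TPM and FPKM per gene, after STAR alignment to R64 per the submitters' processing notes; FPKM were not used. Ribosomal RNA was removed, poly-A RNA was then taken, and libraries kept the strand, per the labels' protocols. The growth protocol of the 28 °C RNA library describes the 37 °C shift, and its sample label was followed. The deposited H3 lists give a summit signal and a fuzziness score per nucleosome, and the deposited Hmo1 lists a score per peak; Picard, SAMtools and deepTools are named in the submitters' processing notes, but the callers are not given in the sources used here. The deposited ChIA-PET file gives a tag count per pair of anchors, for which the submitters' processing notes name BWA, bedtools, cutadapt and Picard but no build, so R64 was assumed. Label and protocol differ on its culture (log phase, or release from G1).

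Expected counts were rounded, scaled by TMM over the 5 RNA libraries (edgeR 4.0.16, R 4.3.3) after a filter of a mean of 20 counts, and turned into log2 CPM with a prior count of 2. No test was run, as each group held 1 library; scripts were tested on simulated data. Intervals are Clopper-Pearson. The NHP6B to NHP6A change is a conditional odds ratio with its exact interval, and the interval of a difference of ratios adds their counting variances. Gene coordinates, names and 6002 nuclear coding genes came from the R64 reference table, to which 6079 of 7126 features matched; strand was read from the systematic name. An overlap needed 1 bp. Named genes were all members, up to 3 genes of largest absolute log2 ratio per list and loss-of-Hmo1 comparison, flanking genes, and the nearest course for each member. Alternatives varied the scaling (DESeq2 1.42.0 size factors among them), filter, prior count, windows and peak thresholds. Another alternative, adding overlapping or adjacently numbered frames, was chosen after seeing the data. Sequences were not used here.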

Additional observations from a re-analysis of the deposited data

Results flagged for a closer look

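NHP6B had ratios of opposite sign for loss of Top2 activity, with and without Hmo1. Its log2 ratio was 0.49 (0.32 to 0.67) in top2-1 over wild type and -0.43 (-0.54 to -0.33) in hmo1Δ;top2-1 over hmo1Δ, a difference of -0.93. By arithmetic this is the difference between the loss-of-Hmo1 ratios given above, from the same libraries, and not a separate result. Over all genes that difference was lower in 4.98%. Each value rests on 1 library against 1 library, and the difference was not tested. With the counts of the overlapping YBR090C and of YBR089W, the frame numbered beside NHP6B, added, the values were 0.35 (0.20 to 0.50) and -0.35 (-0.45 to -0.25).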

How the results depend on the processing

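No paired analysis was possible because each group held 1 library. Relative to the all-gene median, 311 of 316 recomputed member ratios stayed within their counting interval, 5 moved outside it and 0 changed sign while called. A change of scaling factor nearly cancels in that measure, so stability across the scaling settings was fixed in advance. The same holds for members counted above or below that median. The median itself moved, in hmo1Δ over wild type from 0.00 with TMM to -0.25 with library totals. Of 227 alternative member counts, 217 stayed within 1.5 times. These include, for each H3 library, a summit-signal count that was repeated unchanged rather than recomputed. In wild type at 37 °C over 28 °C, members 2-fold higher numbered 0 with TMM, 4 with library totals alone, and 6 with TPM at either pseudocount (1 or 0.1), and those 2-fold lower numbered 1 with TMM and 0 with TPM at either. Members with a control Hmo1 peak numbered 7, or 4 for peaks scoring above the median. With a window of 250 bp, members with an upstream H3 summit numbered 0 rather than 1 in wild type and 1 rather than 2 in top2-1;top1Δ (control plasmid). Members with a Top2 anchor numbered 5, or 3 for pairs above the lowest tag count and 2 with no flank. The cause was not tested.

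All-gene counts of 2-fold higher and lower genes also moved. For hmo1Δ over wild type, 434 and 316 with TMM became 279 and 585 with library totals and 244 and 640, or 268 and 722, with TPM at pseudocounts of 1 and 0.1. For hmo1Δ;top2-1 over top2-1, 229 and 228 became 181 and 281 with totals, and 145 and 279, or 167 and 340, with TPM. For top2-1 over wild type, 93 and 52 became 40 and 21 over nuclear coding genes, 186 and 106 without a filter, and 58 and 19 at a mean of 100 counts. For hmo1Δ;top2-1 over hmo1Δ, 105 and 151 became 198 and 100 with totals, 44 and 122 over coding genes, 190 and 208 without a filter, 54 and 115 at a mean of 100 counts, and 150 and 101, or 174 and 115, with TPM. For wild type at 37 °C over 28 °C, 884 and 1086 became 2734 and 408 with totals, and 4973 and 216, or 5041 and 222, with TPM. Counts limit NHP10 most, at 211 in wild type at 37 °C.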
